A study of Bos taurus with 16 samples.

Results

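FOSB, JUNB, GADD45A, BTG1 and TRIB3, genes of the immediate early and stress responses, were followed in cattle kidney RNA through rising rounds of RNA amplification. Taken for them were all spots of a custom bovine cDNA array whose gene symbol in the array's annotation is one of these 5 symbols, which gave 18 of 16896 spots. Each spotted cDNA clone was printed as a pair of spots, so the 18 spots are 9 clones of 8448: 1 of FOSB, 2 of JUNB, 1 of GADD45A, 3 of BTG1 and 2 of TRIB3. Clones are named here by gene and by their number in the order of the deposited values. All 5 symbols were the same in a current cattle gene table. The 5 genes were picked with their changes against unamplified RNA in these data in view, so every difference from unamplified RNA is given for them as a description, with no test.

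The study compared kidney total RNA that was not amplified (round 0) with kidney RNA that had been amplified linearly once, or for 2 or 3 rounds (rounds 1, 2 and 3); in that method RNA is copied by in vitro transcription. Each round had 2 RNAs, labelled replicate 1 and replicate K, and the labels do not say whether these are separate animals. Each of the 8 RNAs was hybridised on 2 arrays of opposite dye, Cy3 and Cy5, against a reference RNA that had itself been amplified for 2 rounds at every stage and whose tissue is not stated. Kidney and reference thus had the same number of rounds only at round 2. At the other rounds a difference in RNA level and a difference in amplification cannot be told apart in a ratio. No animal's age, sex or breed is given, and the series title names single bovine embryos as the purpose of the amplification method.

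Values are log2 ratios of kidney over reference, centred on each array's median, and a value for an RNA is the mean of its dye swap. That direction is likely rather than stated, because 15 clones of 9 kidney epithelial marker genes had medians of 2.73, 2.78, 2.85 and 2.73 at rounds 0, 1, 2 and 3 with it. A ratio was given for 83.9% to 95% of the spots of an array. The 4 round 0 arrays were deposited with 3 decimals for every spot and the 12 others for 83.2% to 88.2% of them, so round 0 and a difference in handling cannot be told apart. In bulk RNA, fewer cells of a type and less RNA per cell cannot be told apart either. With n = 2 per round, p-values measure the spread between these RNAs, which may be technical.

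Immediate early genes are switched on within minutes of a growth signal, injury or stress, without new protein synthesis, and their transcripts are short-lived. FOSB and JUNB encode partners of the dimeric transcription factor AP-1. GADD45A is a growth arrest gene induced by DNA damage, BTG1 an antiproliferative protein that binds the CCR4-NOT deadenylase complex, and TRIB3 a pseudokinase induced by the transcription factor ATF4 in the integrated stress response. In kidney these responses are known from injury to the tubules and from the handling of excised tissue.

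FOSB, whose protein pairs with JUN proteins to bind DNA, was represented by clone 2196. Its log2 ratios were 2.68 and 2.90 in replicates 1 and K at round 0. They were -0.48 and -0.77 at round 1, -0.26 and -0.10 at round 2, and -0.18 and -0.15 at round 3. Both round 0 RNAs therefore lay above the reference and all 6 amplified RNAs slightly below it, with no overlap; RNAs of rounds 1, 2 and 3 did not overlap those of round 0 in 64%, 64.3% and 65.1% of all tested clones. The ratio at round 0 was 2.79 ± 0.15 (SD, n = 2), which corresponds to 6.90 times the reference and to percentile 98.7 of the 5537 tested clones. Like every round 0 ratio given here, it sets unamplified kidney RNA against an amplified reference and is not a measure of kidney expression alone. In the amplified rounds it stood at percentiles 21.4, 39.7 and 40.8. Set against round 0, FOSB was lower by a log2 difference of -3.41 at round 1, -2.97 at round 2 and -2.95 at round 3, each with an SE of 0.214. Ordered by level, round 0 was highest, rounds 3 and 2 came next with overlapping RNAs, and round 1 was lowest.

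The 4 round 0 arrays of FOSB gave 2.67 and 2.80 with kidney in Cy3 and 2.68 and 3.00 with kidney in Cy5. In the 12 amplified arrays the values ran from -1.57 to -0.28 in Cy3 and from -0.16 to 0.39 in Cy5. The dyes did not overlap after amplification, and no amplified array of either dye came near the round 0 arrays. Within the Cy5 arrays alone round 1 minus round 0 was -2.91, and within the Cy3 arrays alone it was -3.92.

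**Figure D1:**
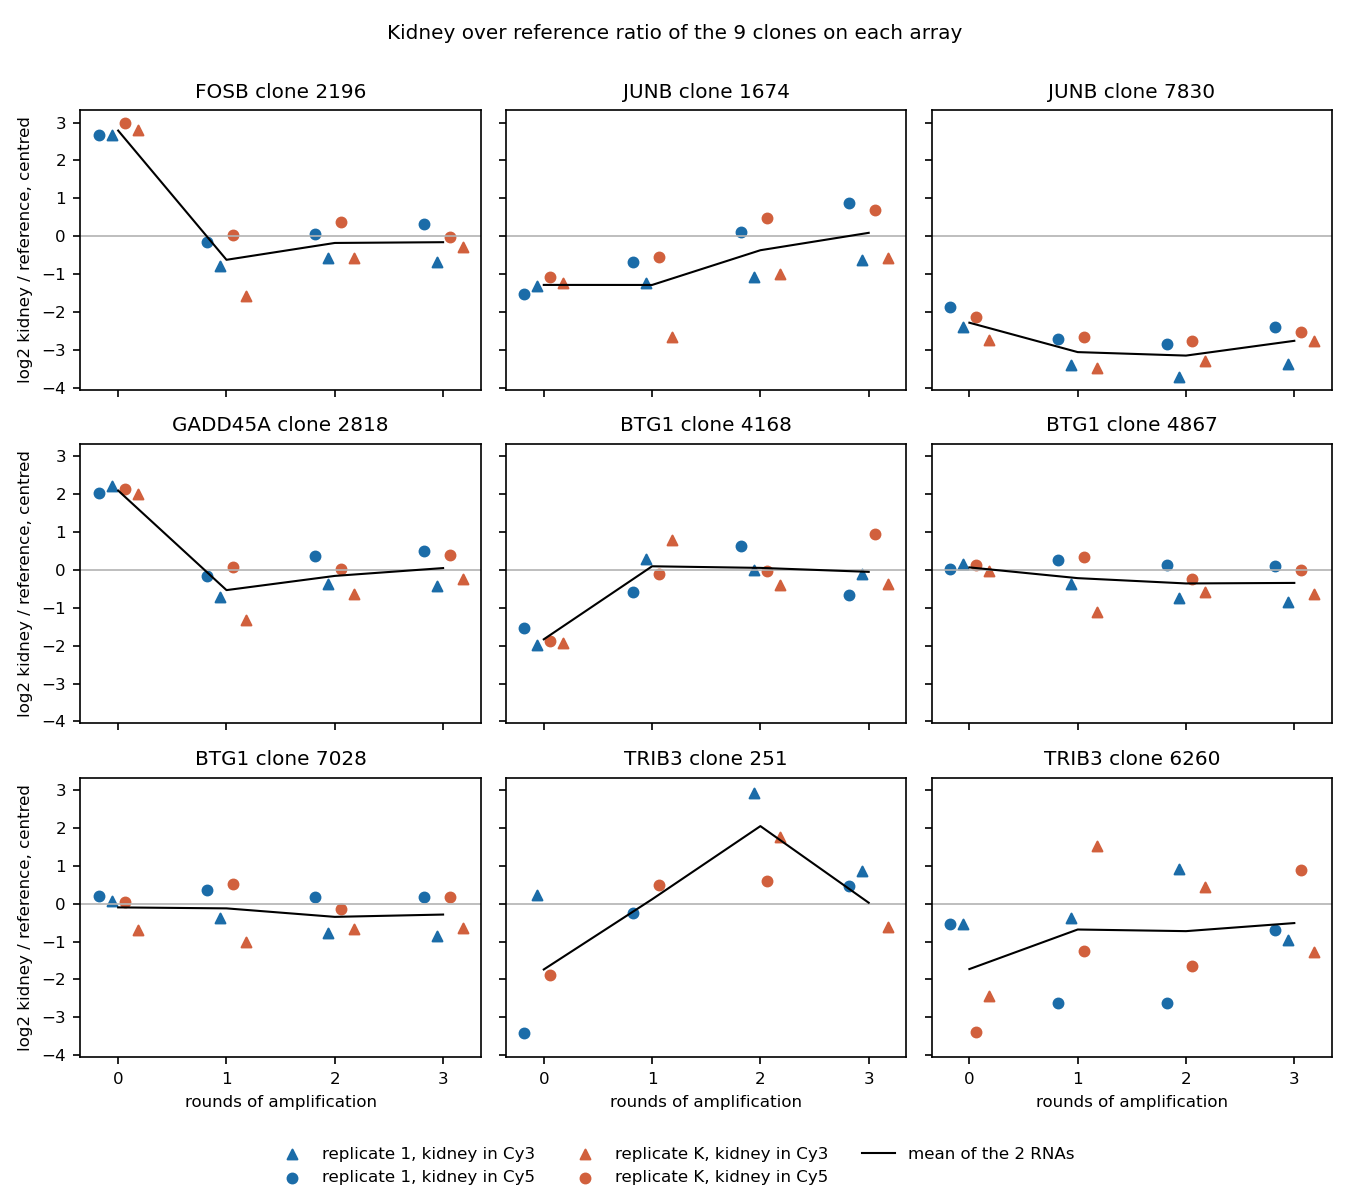
Log2 ratio of kidney over reference (vertical axis, centred on the array median) of each of the 9 clones on each array, by rounds of amplification (horizontal axis). Blue marks replicate 1 and orange replicate K, circles arrays with kidney in Cy5 and triangles arrays with kidney in Cy3, and the black line joins the means of the 2 RNAs of a round. FOSB and GADD45A lie at 2.00 or higher on all 4 round 0 arrays and at 0.49 or lower on all 12 amplified arrays.

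JUNB, an AP-1 subunit of the JUN group, had 2 clones. Clone 1674 carries the symbol JUNB in the annotation, but its ratios lay close to those of an RPS2 clone, given further on, and whether it measures JUNB was not tested. Clone 1674 stood at -1.43 and -1.15 at round 0, -0.96 and -1.62 at round 1, -0.49 and -0.26 at round 2, and 0.12 and 0.05 at round 3. The RNAs of rounds 0 and 1 overlapped, and each further round lay above the one before without overlap. From round 1 to 2 and from round 2 to 3, 22.7% and 22.1% of all tested clones were higher without overlap. Neither step of clone 1674 passed (limma adjusted p = 0.363 and 0.784). Clone 7830 stood at -2.14 and -2.44 at round 0, -3.05 and -3.08 at round 1, -3.28 and -3.03 at round 2, and -2.88 and -2.65 at round 3. It was below the reference on all 16 arrays, from -3.71 to -1.86, and had percentiles of 1.68, 0.379, 0.433 and 0.56 among all tested clones over rounds 0 to 3.

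Against round 0, JUNB clone 1674 differed by less than 0.01 at round 1, by 0.92 at round 2 and by 1.38 at round 3 (SE 0.278). JUNB clone 7830 differed by -0.78, -0.87 and -0.48 (SE 0.221). The signs of the clones were thus opposite at rounds 2 and 3. In the 6 amplified Cy5 arrays clone 1674 had a median of 0.30, and in the 6 amplified Cy3 arrays a median of -1.05.

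GADD45A, which binds cell cycle and stress kinases after genotoxic stress, had 1 clone, 2818. Its ratios were 2.13 and 2.06 at round 0, -0.44 and -0.63 at round 1, 0.00 and -0.31 at round 2, and 0.03 and 0.07 at round 3. As with FOSB, both round 0 RNAs were far above all 6 amplified RNAs. The round 0 level of 2.10 ± 0.04 (SD, n = 2), 4.27 times the reference, was at percentile 96.9, and the amplified rounds were at percentiles 24.5, 40.8 and 52.4. The log2 difference from round 0 was -2.63 at round 1, -2.25 at round 2 and -2.05 at round 3 (SE 0.209). Rounds 3 and 2 did not overlap, and neither did rounds 2 and 1, in that order from higher to lower. The RNAs of these pairs of rounds did not overlap in 38.4% and 40.7% of all tested clones. Neither change of GADD45A passed (limma adjusted p = 0.875 and 0.584), so no order of the amplified rounds is read from it.

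The FOSB and GADD45A clones were also compared array by array. The FOSB ratio minus the GADD45A ratio of the same array was 0.44 to 0.86 at round 0, -0.23 to -0.01 at round 1, -0.31 to 0.37 at round 2 and -0.40 to -0.03 at round 3. These are 2 clones on the same arrays, so their dye and RNA effects are shared. Both were picked with their change from round 0 in view, so nothing is read from their likeness over rounds.

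BTG1, the antiproliferative partner of the deadenylase complex, had 3 clones. Clone 4168 stood at -1.76 and -1.91 at round 0, -0.14 and 0.34 at round 1, 0.31 and -0.21 at round 2, and -0.38 and 0.28 at round 3. Both round 0 RNAs were below all 6 amplified RNAs, and the amplified rounds overlapped each other. Its percentile was 2.84 at round 0 and 52.4, 51.7 and 46.5 thereafter, with log2 differences from round 0 of 1.93, 1.89 and 1.78 (SE 0.329).

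The other BTG1 clones did not share this pattern. Clone 4867 stood at 0.09 and 0.05 at round 0, -0.05 and -0.39 at round 1, -0.30 and -0.41 at round 2, and -0.37 and -0.32 at round 3. Clone 7028 stood at 0.13 and -0.33 at round 0, 0.00 and -0.24 at round 1, -0.29 and -0.40 at round 2, and -0.33 and -0.24 at round 3. All 8 RNAs of both clones were within 0.5 of the reference on the log2 scale.

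On the 12 amplified arrays, the ratio of BTG1 clone 4867 minus that of clone 7028 lay between -0.18 and 0.07. At round 0 it lay between -0.17 and 0.65. The largest of these came from the round 0, replicate K array with kidney in Cy3, on which clone 7028 read -0.69, against 0.04 to 0.19 on the other round 0 arrays. Differences from round 0 were -0.28, -0.42 and -0.41 for clone 4867 (SE 0.208) and -0.03, -0.25 and -0.19 for clone 7028 (SE 0.235). On the centred scale the sign was thus positive for 1 of the 3 BTG1 clones and negative for the other two. The clones share a symbol, and which stretch of the transcript each carries was not analysed here.

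TRIB3, which binds and inhibits AKT kinases and is a target of ATF4 and DDIT3, had 2 clones, both measured poorly. Clone 251 had a ratio on 15 of 32 spots and 11 of 16 arrays, whereas the 7 member clones of the other genes missed at most 1 spot each. Its RNA values were -1.59 and -1.88 at round 0, -0.25 and 0.49 at round 1, 2.92 and 1.18 at round 2, and 0.67 and -0.62 at round 3. Round 2 was above and round 0 below all other RNAs, while rounds 1 and 3 overlapped. The log2 differences from round 0 were 1.85, 3.79 and 1.76, with an SE of 0.669.

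Those TRIB3 values rest on unequal arrays. For clone 251 the round 1 RNAs had Cy5 arrays only, replicate 1 of round 2 and replicate K of round 3 had a Cy3 array only, and the 2 arrays of round 0, replicate 1 read -3.42 in Cy5 and 0.24 in Cy3. Clone 6260 stood at -0.53 and -2.92 at round 0, -1.49 and 0.12 at round 1, -0.85 and -0.60 at round 2, and -0.83 and -0.19 at round 3, with differences from round 0 of 1.04, 1.00 and 1.22 (SE 0.847). Its RNAs overlapped in all 6 pairs of rounds.

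Duplicate spots bear on the TRIB3 values as well. They differed by a median of 1.20 for TRIB3 clone 251 and 1.28 for TRIB3 clone 6260 on the log2 scale, against 0.266 over all tested clones and 0.091 to 0.343 for the other member clones. The size of the difference between the arrays of a dye swap had a median of 1.14 and 2.13 for these TRIB3 clones, against 0.6 for all tested clones. For TRIB3 clone 251, 5 of 15 spot ratios were the log2 of a whole number from 2 to 32, to the 3 decimals deposited. For TRIB3 clone 6260 this held for 5 of 28 (17.9%), and over all tested clones for 4.08% of spot ratios. In the other 7 member clones it held for 1 spot, of BTG1 clone 4168. This count was chosen after the values were seen, and signal intensities were not analysed here.

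**Figure D2:**
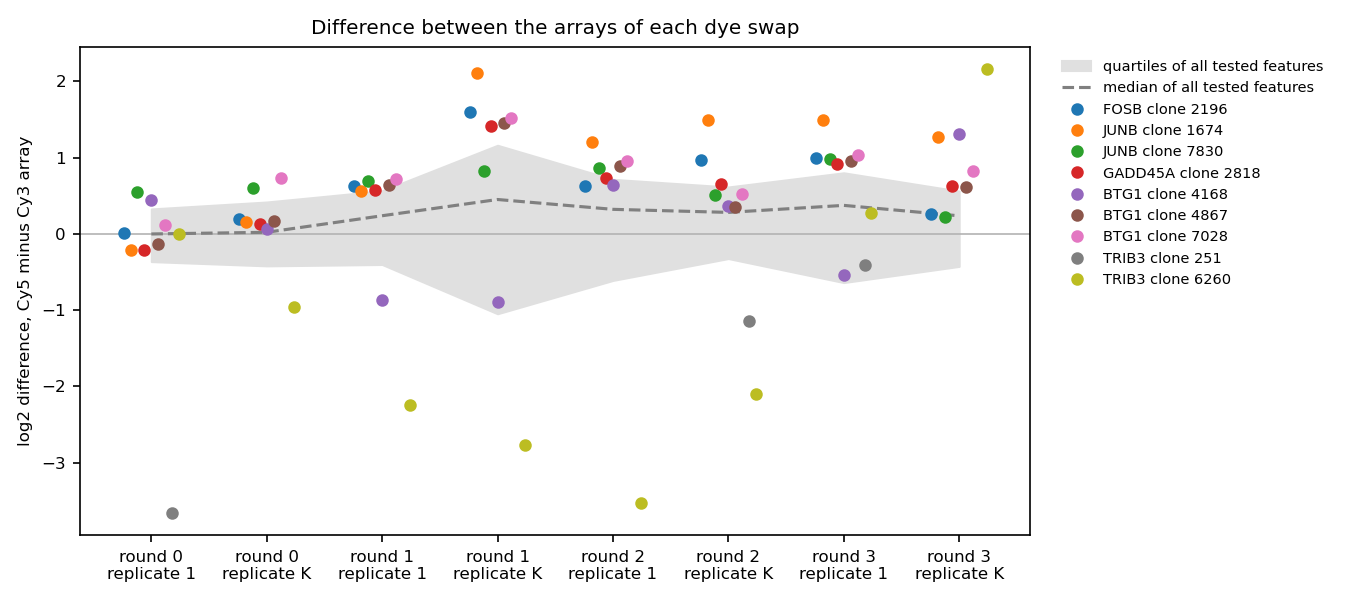
Log2 ratio on the array with kidney in Cy5 minus that on the array with kidney in Cy3 (vertical axis) for each of the 8 RNAs (horizontal axis). Coloured points are the member clones, the grey band runs between the quartiles of all tested clones and the dashed line is their median; the JUNB clone 1674 reaches 2.11 at round 1, replicate K, and TRIB3 clone 6260 reaches -3.53 at round 2, replicate 1.

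Dye orientation moved the amplified values of most member clones in one direction. The Cy5 array minus the Cy3 array had a median over all tested clones of 0.00 and 0.02 in the round 0 RNAs and between 0.24 and 0.45 in the 6 amplified RNAs. FOSB had differences of 0.01 and 0.20 at round 0 and of 0.26 to 1.59 after amplification. GADD45A had -0.21 and 0.14 at round 0 and 0.57 to 1.41 after amplification. For FOSB, GADD45A, BTG1 clone 4867 and BTG1 clone 7028, every amplified Cy5 array was above every amplified Cy3 array. BTG1 clone 4168 showed both signs, from -0.89 to 1.31. Each RNA has 1 array of each dye, so the means used here hold both orientations equally, except for the TRIB3 clone with missing arrays.

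Considered together at round 0, 7 of 9 member clones had a mean ratio over 1 in size on the log2 scale (77.8%, against 25.9% of all tested clones), 2 of them above and 5 below the reference. At rounds 1, 2 and 3 the number was 2, 2 and 1, against 26.2%, 24.4% and 24.0% of all tested clones. The median size of the ratio was 1.74 at round 0 and 0.53, 0.36 and 0.16 at rounds 1, 2 and 3 for the members, and 0.58, 0.57, 0.54 and 0.53 for all tested clones. Since the genes were picked for their difference from round 0, nothing is read from this contrast. JUNB clone 7830 alone kept a mean ratio beyond 2 in size at all 4 rounds.

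Without centring, the median of all tested clones was itself shifted relative to round 0, by log2 differences of -1.04, -0.08 and -0.34 in rounds 1, 2 and 3. Uncentred, FOSB differed from round 0 by -4.42, -3.07 and -3.31, GADD45A by -3.64, -2.35 and -2.41, and BTG1 clone 4168 by 0.92, 1.79 and 1.42. At round 1 the uncentred difference was -1.01 for JUNB clone 1674, -1.79 for JUNB clone 7830, -1.30 for BTG1 clone 4867 and -1.04 for BTG1 clone 7028, beside centred ones of 0.00, -0.78, -0.28 and -0.03. Those of JUNB clone 1674, BTG1 clone 4867 and BTG1 clone 7028 are thus near the shift of all tested clones. TRIB3 clone 251 differed by 0.74 and TRIB3 clone 6260 by 0.03 at round 1 without centring, beside 1.85 and 1.04 with it.

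Changes among rounds 1, 2 and 3 were tested, because the choice of genes rested on differences from round 0. The RNAs of rounds 1, 2 and 3 entered those differences too, so these tests are not fully independent of the choice. The test was limma's moderated test on the 5537 clones that had a listed gene and a ratio in all 8 RNAs, with Benjamini-Hochberg adjustment over all of them and a threshold of 0.05. None of the 9 member clones passed in round 2 against round 1, where 0% of all tested clones passed by limma, in round 3 against round 1, where 0.289% passed, or in round 3 against round 2, where 0% passed. At an unadjusted p under 0.05 there were 2, 2 and 1 member clones, against 10.3%, 21.2% and 7.24% of all tested clones.

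The member closest to the threshold was JUNB clone 1674. Its RNAs stood at 0.12 and 0.05 at round 3, against -0.96 and -1.62 at round 1, which did not overlap. The log2 difference was 1.38 ± 0.28 (SE, n = 2 per round), or 2.60-fold, with a 95% interval from 0.71 to 2.05, an unadjusted p of 0.00214 and an adjusted p of 0.0751 by limma. The adjusted p lay between 0.0181 and 0.253 over 22 alternative settings. It passed with a dye term fitted to all 16 arrays (adjusted p = 0.0181, limma) and when only clones with a value on all 16 arrays were tested (adjusted p = 0.0366, limma). The dye-term fit had the RNA as a random block, but the estimated correlation within an RNA was -0.079, so it counted the 4 arrays of a round nearly as separate samples (11 residual degrees of freedom rather than 4). Its SE was larger, 0.32, and it called 9.5% of all tested clones rather than 0.289%, so its p is too small for 2 RNAs per round. Within the Cy5 arrays the difference was 1.40 (limma adjusted p = 0.0857) and within the Cy3 arrays 1.35 (limma adjusted p = 0.253). Neither passed, and both rest on the same 2 RNAs per round, so they are not independent of each other.

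GADD45A had 0.03 and 0.07 at round 3, against -0.44 and -0.63 at round 1, a log2 difference of 0.58 with a 95% interval from 0.08 to 1.09 (limma adjusted p = 0.188). FOSB had -0.18 and -0.15 at round 3, against -0.48 and -0.77 at round 1, a difference of 0.46 with an interval from -0.05 to 0.98 (limma adjusted p = 0.271). Both were non-overlapping between those rounds and neither passed. TRIB3 clone 251 had 2.92 and 1.18 at round 2, against -0.25 and 0.49 at round 1, with a difference of 1.93 and an interval from 0.32 to 3.55 (limma adjusted p = 0.404). Between rounds 3 and 2 it differed by -2.02, with an interval from -3.64 to -0.41 (limma adjusted p = 0.653). With a dye term fitted to all 16 arrays, its difference between rounds 2 and 1 was 0.69 rather than 1.93. Without replicate 1 of round 2 that difference was 1.06 and the one between rounds 3 and 2 was -1.15. Without replicate K of round 2 they were 2.80 and -2.89.

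For the BTG1 clones the intervals included 0 in all 3 comparisons. They bounded the change between rounds 3 and 1 of BTG1 clone 4867 to between -0.63 and 0.38, and that of BTG1 clone 7028 to between -0.73 and 0.40. For TRIB3 clone 6260 the same interval ran from -1.87 to 2.21. The replicates did not overlap for 5 member clones in round 2 against round 1 (4 higher and 1 lower), for 5 in round 3 against round 1 (4 higher and 1 lower) and for 4 in round 3 against round 2 (3 higher and 1 lower). Over all tested clones this held for 40.7% (22.7% higher and 18% lower), 52.6% (29.5% and 23.1%) and 38.4% (22.1% and 16.3%), so the members' counts are near the background.

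**Figure D3:**
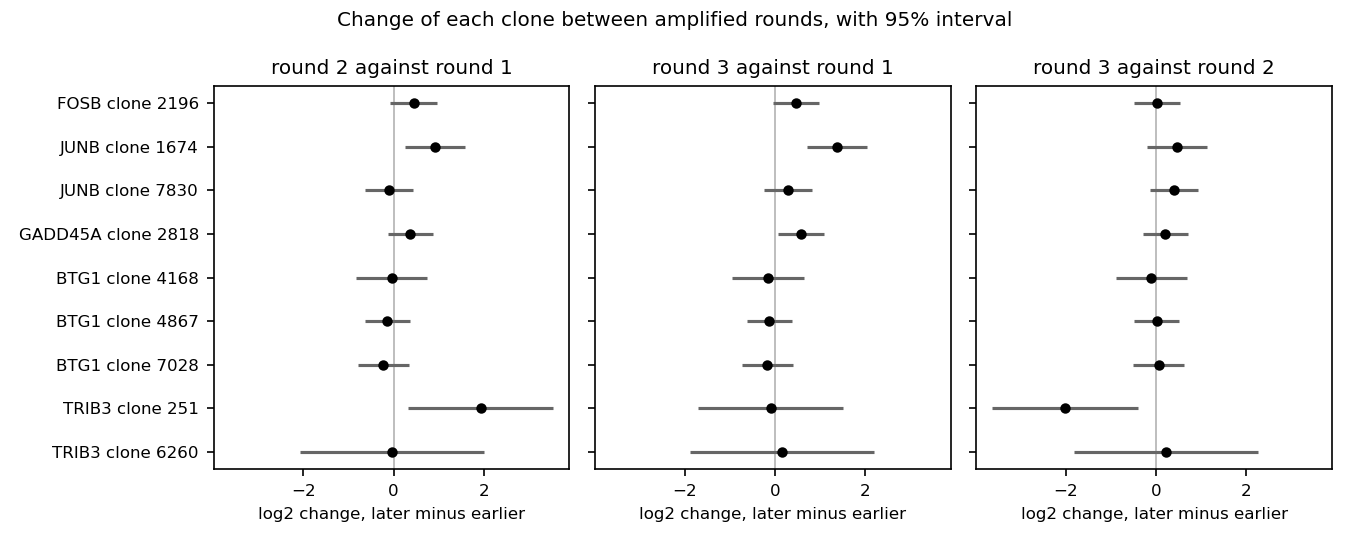
Log2 change of each member clone, later round minus earlier round (horizontal axis), for the 3 comparisons between amplified rounds; points are limma estimates from 2 RNAs per round and lines are 95% intervals. The interval of JUNB clone 1674 lies above 0 in round 3 against round 1, from 0.71 to 2.05, and no clone passed after adjustment over all tested clones.

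The other genes of these pathways were taken as a list of 140 symbols in 6 roles, without the 5 genes above. The list was chosen with earlier results of these data known, so its counts and p-values are not independent of them. The array held 69 of the symbols, and 101 clones of 68 genes were tested. Against round 0, 18 clones passed at round 1 (6 higher and 12 lower, 17.8% of the list), 14 at round 2 (3 higher and 11 lower, 13.9%) and 16 at round 3 (5 higher and 11 lower, 15.8%). Over all tested clones 13.3%, 11.2% and 11.6% passed, of which 5.4%, 4.39% and 4.57% of all tested were higher and 7.87%, 6.79% and 7.04% lower. The median change of the list was 0.00, -0.13 and -0.25 on the log2 scale, beside -0.03, 0.01 and 0.00 for all tested clones. The highest and lowest clone of a role, named below, are those by the mean ratio over the 4 rounds, and at single rounds other clones of the role can stand above or below them.

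These list counts moved with single RNAs and with the centring. Leaving out replicate 1 or K of round 0 left 6 or 3 clones at round 1, 5 or 2 at round 2 and 6 or 3 at round 3. Over all tested clones it left 3.74% or 2.84%, 3.27% or 2.19%, and 3.44% or 2.71%. Leaving out replicate 1 or K of the later round left 10 or 5, 1 or 1, and 2 or 1 clones of the list, beside 5.54% or 1.95%, 0.396% or 0.957%, and 2.61% or 1.64% of all tested. Without centring, 0 clones were higher and 30 lower at round 1, 0 and 1 at round 2, and 0 and 5 at round 3, where 33.7%, 1.21% and 2.35% of all tested clones passed. The 3 comparisons share the round 0 RNAs.

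AP-1 subunits and their relatives had 12 clones of 7 genes beside FOSB and JUNB, and 0 passed by limma in any of the 6 pairs of rounds. Against round 0, 13.3%, 11.2% and 11.6% of all tested clones passed at rounds 1, 2 and 3. At an unadjusted p under 0.05 there were 5, 4 and 2 when rounds 1, 2 and 3 were set against round 0, beside 31.8%, 30.9% and 31.6% of all tested clones, and 0 in the other pairs. FOS, the founding AP-1 subunit, had mean ratios of -0.54, 0.09, 0.12 and 0.23 over rounds 0 to 3. JUN had the clones with the highest and the lowest 4-round mean of the role: clone 7855 stood at 0.46, 0.20, -0.15 and 0.37, and clone 5421 at -2.03, -1.59, -1.46 and -1.27.

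Of the other immediate early genes, 35 clones of 22 genes were tested, and 8, 8 and 7 passed when rounds 1, 2 and 3 were set against round 0. That is 22.9%, 22.9% and 20% of them, beside 13.3%, 11.2% and 11.6% of all tested clones. EGR1, a zinc finger transcription factor, was at -0.62 and -1.04 at round 1, against 0.62 and 0.48 at round 0, and fell by 1.38 (SE 0.220, limma adjusted p = 0.0176). It also fell by 1.17 at round 2 and did not pass at round 3. KLF2, a Krüppel-like transcription factor of endothelium, had a clone, 4174, that fell at rounds 1, 2 and 3, with log2 changes of -1.43, -1.32 and -1.18. Its clone 4415 stood at -0.17, -0.46, 0.09 and 0.32 over rounds 0 to 3 and did not pass. ZFP36L1, an mRNA decay factor, also fell at all 3 rounds, with changes of -1.13, -1.27 and -1.45.

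KLF4, another Krüppel-like factor, fell at rounds 1 and 2, with changes of -0.92 and -1.04, and KLF10, a factor induced by TGF-beta, fell by 1.00 at round 3. DUSP1, a phosphatase that switches off stress kinases, had a clone, 4357, that fell at rounds 1 and 2 (changes of -1.51 and -1.07), while its other clones did not pass. Of these, clone 622 had changes of the opposite sign, 1.19 and 0.86. Clone 5429 had a change of -0.11 at round 1. IER3, an early response gene, fell by 1.24 at round 1. In the other direction, 1 of 3 clones of IER5 rose by 1.26, 1.19 and 1.36, and DUSP4, a nuclear phosphatase of ERK kinases, rose by 1.20 and 1.08 at rounds 2 and 3. DUSP6, a cytoplasmic ERK phosphatase, had the clone with the highest 4-round mean (2.03, 2.45, 1.92 and 2.21 over rounds 0 to 3), and CCN2, a matrix-associated growth factor, the lowest (-1.94, -2.68, -2.76 and -2.41).

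RHOB, a small GTPase with a short-lived transcript, passed in both directions. Its RNAs stood at 2.83 and 2.87 at round 1, against 0.95 and 0.70 at round 0, and it rose by 2.03 (SE 0.223, limma adjusted p = 0.00756). At round 3 its RNAs stood at -0.38 and -0.38, and it fell by 1.20 relative to round 0. Relative to round 1 it fell by 3.23 at round 3 (limma adjusted p = 0.0145). MCL1, an anti-apoptotic BCL2 relative, fell relative to round 0 at rounds 2 and 3, with changes of -1.13 and -1.64. Relative to round 1 it fell by 1.99 at round 3 (limma adjusted p = 0.0216).

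Among growth arrest and DNA damage genes, 10 clones of 7 genes were tested. PERP, a p53 target and desmosome protein, stood at -0.51 and -1.02 at round 1, against 2.62 and 2.59 at round 0, and fell at rounds 1, 2 and 3 with changes of -3.37, -3.03 and -3.11 (SE 0.248, limma adjusted p = 0.00322 to 0.00431). GADD45B, the paralogue of GADD45A, had 2 clones. Clone 6454 fell by 0.89 at round 3, and clone 2643 stood at 0.06, 0.55, 0.04 and 0.39 over rounds 0 to 3 and did not pass. TP53INP1, a p53-induced protein, had 1 of 2 clones that rose by 1.70 at round 1 and did not pass at rounds 2 and 3. Its other clone, 6194, had a change of the opposite sign at round 1, -0.74, and did not pass. By 4-round mean, SESN1, a stress-induced inhibitor of mTORC1, had the highest clone (1.94, 1.75, 0.67 and -0.03) and CDKN1A, the p21 inhibitor of cyclin-dependent kinases, the lowest (-2.14, -1.86, -1.73 and -2.46). That SESN1 clone, 7332, had SDs of 1.09 and 1.20 between replicates at rounds 2 and 3. The other SESN1 clone, 7429, stood at 0.46, 0.46, 0.51 and 0.82.

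The BTG and TOB family and its CCR4-NOT partners had 8 tested clones of 7 genes besides BTG1. Set against round 0, 1, 2 and 3 of them were lower at rounds 1, 2 and 3 by the limma test and 0 were higher. Over all tested clones 7.87%, 6.79% and 7.04% were lower and 5.4%, 4.39% and 4.57% higher. With 8 clones, nothing is read from the absence of higher ones. BTG2, the closest paralogue of BTG1, stood at -0.64 and -0.78 at round 3, against 0.47 and 0.57 at round 0, and fell at rounds 2 and 3 with changes of -1.54 and -1.23. CNOT6, a deadenylase subunit, had 1 of 2 clones that fell at rounds 1, 2 and 3 with changes of -1.53, -1.73 and -1.59. CNOT7, the deadenylase to which BTG proteins bind, fell by 1.03 at round 3 relative to round 0. Relative to round 1 it fell by 1.83 (limma adjusted p = 0.0431). By 4-round mean, TOB2 was highest in the role (1.00, 1.01, 0.86 and 0.65) and PRMT1, an arginine methyltransferase that binds BTG1, lowest (-0.74, -0.59, -0.31 and -0.76).

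The integrated stress and unfolded protein responses had 25 tested clones of 17 genes, of which 3, 2 and 3 passed when rounds 1, 2 and 3 were set against round 0. These are 12%, 8% and 12% of the role, beside 13.3%, 11.2% and 11.6% of all tested clones. ATF4, the transcription factor that drives TRIB3, had the lowest 4-round mean of the role, stood at -1.19, -1.79, -1.57 and -1.60 and did not pass. DDIT3, which encodes CHOP, rose by 1.09 at round 3. CEBPB, its dimer partner, had 1 of 2 clones that rose by 0.95 and 1.22 at rounds 2 and 3. HERPUD1, an endoplasmic reticulum stress protein, rose by 0.97 at round 3. DDIT4, an inhibitor of mTORC1, had 1 of 3 clones that fell at rounds 1 and 2, with changes of -1.74 and -1.45. SLC3A2, an amino acid transporter subunit, rose by 1.25 at round 1.

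PPP1R15B, a subunit of the phosphatase that restores translation, had a clone, 85, that stood at 2.06 and 1.45 at round 1, against -0.20 and -0.16 at round 0, and rose by 1.93. At round 3 it stood at -1.21 and -0.86 and fell by 2.79 relative to round 1 (limma adjusted p = 0.0223). PPP1R15B clone 4099 stood at -0.04, 0.57, 0.41 and 0.37 over rounds 0 to 3 and did not pass. TXNIP, a thioredoxin inhibitor, had the clone with the highest 4-round mean of the role, 6134, at 2.46, 4.75, 2.46 and 0.33 over rounds 0 to 3, while its clones 5911 and 39 lay between 2.29 and 2.70 at every round. None of the TXNIP clones passed in the comparisons with round 0.

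Upstream kinases had 11 tested clones of 8 genes, of which 4, 1 and 1 passed in the same comparisons. As shares these are 36.4%, 9.09% and 9.09%, beside 13.3%, 11.2% and 11.6% of all tested clones. MAP2K2, a kinase that activates ERK, had 4 clones that did not move alike: at round 1 clone 2923 rose by 1.90, clone 3834, with the lowest 4-round mean, fell by 2.24, clone 5449 fell by 1.70, and clone 2961, with the highest 4-round mean of the role (0.18, 1.28, 1.22 and 1.08), did not pass. Clone 5449 also fell at rounds 2 and 3, with changes of -1.62 and -1.53. The round 0 RNAs of clone 3834 lay apart, at -0.32 in replicate 1 and 1.48 in replicate K. At round 1 they stood at -1.49 and -1.84, so the size of its fall depends on the round 0 replicate. MAPK9, a JNK kinase, fell by 0.92 at round 1.

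Between amplified rounds, 0 of the 101 list clones passed by limma in round 2 against round 1 and 0 in round 3 against round 2. At an unadjusted p under 0.05 there were 12 and 9 of them, beside 10.3% and 7.24% of all tested clones. In round 3 against round 1, the 4 clones of RHOB, PPP1R15B, MCL1 and CNOT7 named above passed, all lower, which is 3.96% of the list beside 0.289% of all tested clones. These calls did not hold when any 1 of the 8 RNAs was left out, and fewer of all tested clones passed then too.

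**Figure D4:**
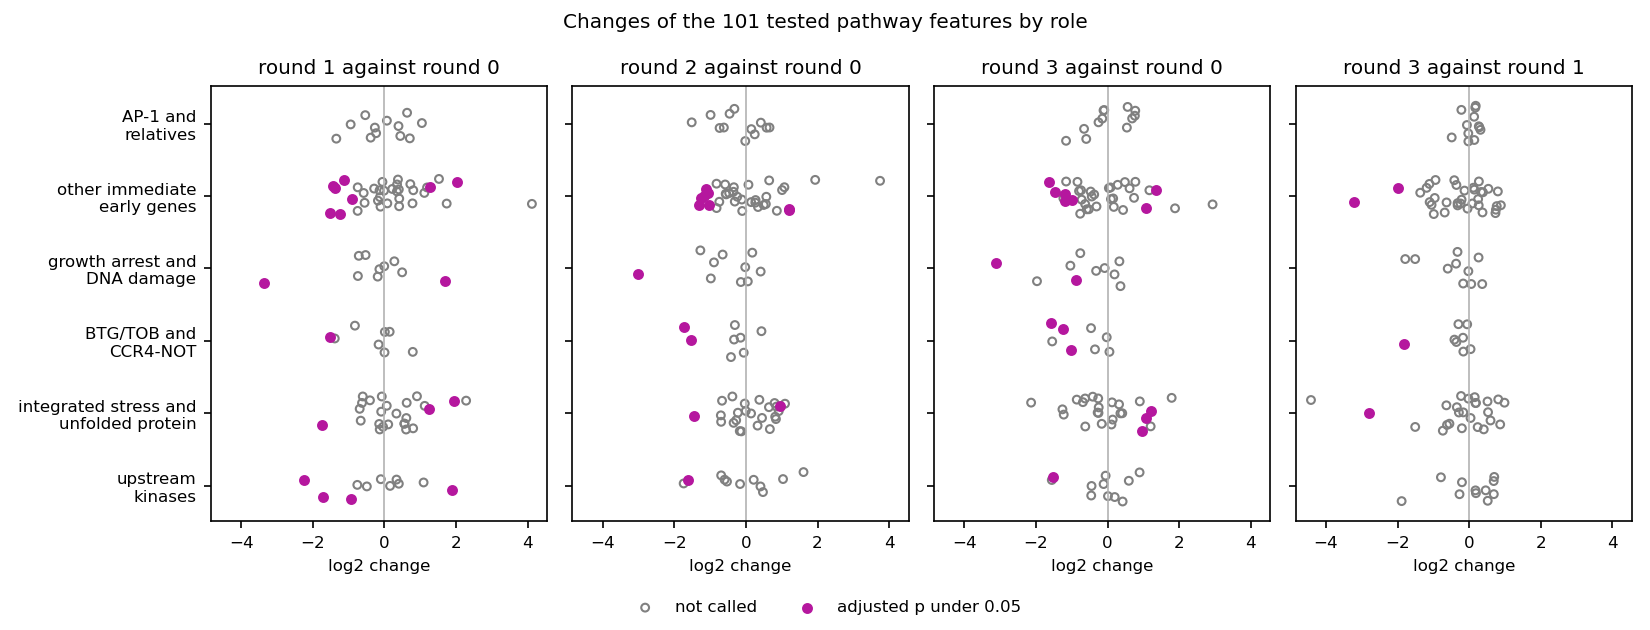
Log2 change (horizontal axis, later round minus earlier round) of each of the 101 tested clones of the pathway list, by role (vertical axis), for 4 comparisons; filled points passed at an adjusted p under 0.05 and open points did not, and vertical scatter within a role carries no value. All 12 AP-1 clones are open in each panel, and the filled points of round 3 against round 1 are the 4 lower clones of RHOB, PPP1R15B, MCL1 and CNOT7.

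For each gene, the clone with the strongest difference among rounds was set against all clones of other genes over the 8 RNAs. The Pearson correlations are a description over 8 values that share RNAs, arrays and, for most clones, a split of round 0 from the rest. FOSB was most like ALAD, an enzyme of haem synthesis (r = 0.996), PERP (r = 0.996) and PPP1R35, a centrosomal protein (r = 0.995), and 309 of 5442 clones reached 0.9. PPP1R35 had means of 2.72, -0.49, -0.33 and -0.24 over rounds 0 to 3. GADD45A was most like TXNDC11, a thioredoxin-domain protein (r = 0.997), LIFR, the receptor of leukaemia inhibitory factor (r = 0.994), and RBMX2, an RNA-binding protein (r = 0.992), with 322 clones at 0.9 or more.

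BTG1 clone 4168 was most like SH3BP5 (r = 0.981), AGPAT3, an acyltransferase (r = 0.979), and C18H19orf48 (r = 0.976), with 98 clones at 0.9 or more. TRIB3 clone 251 was most like MADD, a Rab exchange factor (r = 0.959), SEMA4B, a semaphorin (r = 0.934), and PYCARD, the inflammasome adaptor (r = 0.933), and 16 clones reached 0.9. JUNB clone 1674 was most like RPS2, a ribosomal protein of the small subunit (r = 0.991), HTRA1, a serine protease (r = 0.987), and RBBP4, a histone-binding protein (r = 0.986), with 93 clones at 0.9 or more.

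The RPS2 clone is numbered 6 places before JUNB clone 1674, and its means were -1.15, -1.36, -0.42 and 0.07 over rounds 0 to 3. On the 12 amplified arrays the JUNB ratio minus this RPS2 ratio lay between -0.06 and 0.15, and on the 4 round 0 arrays between -0.35 and -0.01. How the clones lay next to each other in printing was not analysed here, so the values of JUNB clone 1674, among them its difference between rounds 3 and 1, may not be those of JUNB.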

How the data were processed

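Kidney RNA of 8 preparations was measured on 16 two-colour arrays. The authors' deposited values are log2 ratios of the channels in 15 columns. The column for replicate 1 of round 1 with kidney in Cy3 also holds deposited numbers far outside that range, so it is called a score. Numbers over 10 in size, a recurring code of 16.61 among them, were set to missing. The authors' way of reading images, correcting background and normalizing was not given in the sources used here. No intensities were used. Ratios with kidney in Cy3 had their sign turned. The median ratio of the 5693 features that have a listed gene was subtracted on every array. Duplicate spots and dye swaps were averaged, and an RNA with 1 array kept that array. The limma package (3.58.1, in R 4.3.3, with version 1.17.8 of the data.table package) fitted 1 mean per round, with 4 residual and 2.4 prior degrees of freedom. The scripts were tested on simulated data. Named from the pathway list were genes called in any pair of rounds and each role's highest and lowest clone, and for each member gene the 3 most correlated clones. The members and lists were chosen with earlier results of these data known. Alternatives changed the centring, dyes, samples and moderation. Residuals of same-numbered replicates correlated over 0.1 in 1 of 6 pairs of rounds, so the numbers are not taken as pairs.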

Additional observations from a re-analysis of the deposited data

Results flagged for a closer look

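Each member clone with a value on all 4 arrays of a round was examined for an array set apart from the other 3, which gave 32 sets of 4 arrays, and 0 passed the limit of Dixon's test.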

How the results depend on the processing

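Over 585 alternative values of the members' differences from round 0, 504 moved by less than the residual SD, 81 moved by more, and 16 had another sign. Of 585 values between amplified rounds, 583 stayed on the same side of the threshold, and 2, both of JUNB clone 1674 in round 3 against round 1, passed it; 52 that were past no threshold had another sign. The members called in round 3 against round 1 numbered 1 rather than 0 with a dye term on all 16 arrays, and 1 with only clones valued on all 16 arrays, a setting chosen after seeing the data. List counts at round 1 against round 0 (18 as reported) were 30 without centring, 30 with the dye term, 7 with Cy5 arrays only, 0 with only the rounds compared, 9 without the round 1, replicate 1, Cy3 array, and 3 to 14 when 1 RNA was left out. At round 2 against round 0 (14) they were 1, 29, 5, 3 and 8 under the same settings, 8 with Cy3 arrays only, and 1 to 12 with 1 RNA left out. At round 3 against round 0 (16) they were 5 without centring, 32 with the dye term, 9 with Cy3 arrays only, 5 with only the rounds compared, 8 without that array and 1 to 13 with 1 RNA left out. Over all tested clones the shares at rounds 1, 2 and 3 were 13.3%, 11.2% and 11.6% as reported. They were 33.7%, 1.21% and 2.35% without centring and 23.3%, 22.5% and 23.9% with the dye term. Only the rounds compared gave 0.0361%, 2.67% and 4.64%, and leaving out that array gave 6.35%, 6.24% and 5.69%. Cy5 arrays only gave 4.3% and 5.23% at rounds 1 and 2, and Cy3 arrays only 10.3% and 7.92% at rounds 2 and 3. In round 2 against round 1 the dye term gave 3 list clones rather than 0, beside 0.56% of all tested. In round 3 against round 1 the list count was 4 as reported, beside 0.289% of all tested clones. It was 0 without centring, with Cy3 arrays only and with only the rounds compared, beside 0% of all tested. It was also lower with any 1 RNA left out. With the dye term it was 15, beside 9.5% of all tested, and with only clones valued on all 16 arrays 9, beside 5.18%. Settings that drop RNAs or arrays have fewer samples by construction; the dye-term fit counts the 2 arrays of an RNA nearly as separate samples; for the others the cause was not tested. With the replicate number as a block, the list counts against round 0 were 15, 12 and 13, that of round 3 against round 1 was 3, and the members had 0 calls between amplified rounds, so the block moved none of these totals by over 1.5 times; the higher clones of the list at round 3 against round 0 numbered 3 rather than 5. Signal over background was not available here, so dim spots could not be filtered.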
